A study of Mus musculus with 11 samples.

Results

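Intercalated cells are the acid-base cells of the connecting tubule and collecting duct, and 10 genes of their transport machinery were followed in kidneys of Cldn16 mutant mice. The genes were taken by symbol from the platform annotation, every probe included: 10 of 19057 named genes on the array, with 13 of its 45281 probes. They were Slc4a1, Rhcg and Rhbg (read as alpha cell genes), Slc26a4 and Slc4a9 (beta cell genes), and Atp6v1b1, Atp6v1c2, Atp6v1g3, Atp6v0d2 and Car2 (shared by both kinds of cell). At least 1 probe of 9 genes was detected well enough to be tested, and the only probe of Atp6v0d2 was not. Cldn16 encodes claudin-16, which sits in the cell contacts of the thick ascending limb and lets magnesium and calcium pass between cells; people without it lose both ions in the urine.

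Whole kidney tissue without its poles came from 11 female mice aged 8 weeks on a mixed Sv129 and C57BL/6N background, 1 array per mouse. The mice were Cldn16 +/+ (WT, n = 4), Cldn16 +/- (Het, n = 3) or Cldn16 -/- (KO, n = 4). All groups shared a 129S7/SvEvBrd-Hprtb-m2 origin with 1 backcross to C57BL/6N and standard food after weaning, and the labels name no treatment. The mixed background leaves genetic differences between the mice, and the labels do not say which mice were littermates. The arrays lay on 2 slides, each with all 3 genotypes. The 4 mice at postnatal day 59 (2 WT, 1 Het, 1 KO) all lay on slide 1, while the other 7 were at day 58. Both WT arrays of slide 1 were at day 59 and both of slide 2 at day 58, so among WT arrays slide and day cannot be told apart. On slide 1 the Het and KO arrays were 1 at each day. Differences from WT within slide 1 therefore also set different days against each other.

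Alpha intercalated cells secrete acid: carbonic anhydrase 2 (Car2) makes protons and bicarbonate, the vacuolar proton pump drives the protons into the urine, and the anion exchanger AE1 (Slc4a1) returns the bicarbonate to the blood. Rhesus glycoproteins (Rhbg on the basolateral side, Rhcg mainly on the apical side) let ammonia pass, which carries acid into the urine. Beta intercalated cells face the other way: pendrin (Slc26a4) on the apical side secretes bicarbonate in exchange for chloride, and AE4 (Slc4a9) lies on the basolateral side. The transcription factor Foxi1 is required for both kinds of cell and switches on several of these genes. Not all of the genes are private to intercalated cells: Car2 is also made in the proximal tubule, Slc4a1 in red cells, and Rhcg and Rhbg in neighbouring cells of the collecting system.

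Promoters are shown because Foxi1, a forkhead factor, is known to bind in front of pump subunit genes. Promoter sequences of RefSeq on mouse build GRCm38.p6 (250 bases before to 50 bases after the start of the gene) were available for 5 of the 10 genes, and 3 of them are printed here for a pump subunit, a beta cell exchanger and an alpha cell ammonia channel. They lie at chr6:83742767-83743066 on the plus strand (Atp6v1b1), chr12:31559935-31560234 on the minus strand (Slc26a4) and chr7:79617608-79617907 on the minus strand (Rhcg). Capitals mark the forkhead core.
Atp6v1b1: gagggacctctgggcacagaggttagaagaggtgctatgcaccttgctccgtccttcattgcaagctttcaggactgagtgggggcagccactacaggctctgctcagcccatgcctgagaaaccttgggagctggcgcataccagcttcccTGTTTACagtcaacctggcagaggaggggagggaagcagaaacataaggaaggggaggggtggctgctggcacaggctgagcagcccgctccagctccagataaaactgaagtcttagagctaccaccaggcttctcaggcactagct
Slc26a4: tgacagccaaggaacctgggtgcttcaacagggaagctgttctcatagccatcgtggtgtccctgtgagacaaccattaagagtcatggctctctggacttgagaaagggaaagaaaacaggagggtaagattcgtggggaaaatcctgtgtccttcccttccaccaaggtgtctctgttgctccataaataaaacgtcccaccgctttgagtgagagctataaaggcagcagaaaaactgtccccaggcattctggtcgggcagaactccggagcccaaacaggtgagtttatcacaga
Rhcg: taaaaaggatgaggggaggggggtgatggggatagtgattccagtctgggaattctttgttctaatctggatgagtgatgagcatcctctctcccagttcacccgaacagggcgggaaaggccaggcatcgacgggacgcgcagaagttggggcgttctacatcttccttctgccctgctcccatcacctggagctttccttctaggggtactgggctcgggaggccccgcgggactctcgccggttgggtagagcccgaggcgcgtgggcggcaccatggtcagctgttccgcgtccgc

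The 7 letters searched were TGTTTAC and, for the other strand, its complement GTAAACA, which do not overlap each other as words. Of the 5 promoters (Atp6v1b1, Atp6v1c2, Atp6v1g3, Slc26a4 and Rhcg), 1 held a match, that of Atp6v1b1, with its first base 98 bases upstream of the start. Of all 32851 mouse promoters of the same 300 bases, 1199 (3.65%) held a match. A match is a stretch of letters and not a measured binding site, and promoters without these letters are not thereby shown to lack a site.

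Values below are log2 intensities after background correction and quantile normalization, so that a difference of 1 is a 2-fold difference, and they are comparable between arrays for 1 probe but not between probes. Between 18854 and 19742 probes per array (41.6% to 43.6%) had a detection p under 0.01, called above background here, and pairs of arrays correlated at 0.981 to 0.991. Tests are limma's moderated test on all 11 arrays with Benjamini-Hochberg adjustment over 22856 probes (threshold 0.05) and, for a single gene, an exact two-sided permutation test over arrays, which cannot go below 0.0286 for 4 against 4 or 3 against 4 arrays. Each array is labelled as 1 numbered mouse. The single Cldn16 probe differed by -0.53 ± 0.16 (SE) log2 units between KO and WT kidneys (adjusted p = 0.227 in limma), but no source used here places it relative to the deleted part, so it checks no label. Because whole tissue was measured, fewer intercalated cells and less RNA per cell cannot be told apart in any value.

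In the comparison of KO with WT kidneys, which asks what the loss of both Cldn16 alleles does to these genes, no gene passed the test. By the main (brightest) probe of each, 5 of the 9 tested genes were nominally higher and 4 nominally lower in KO kidneys, and 0 of 9 passed an adjusted p of 0.05 in limma, against 0.0394% of all tested probes (9 of 22856). At an unadjusted p under 0.05 in limma there were 2 of 9 genes (Slc4a9 and Rhbg), against 12.9% of all probes. In 3 of 9 genes (Slc4a9, Rhbg and Rhcg) the KO and WT arrays did not overlap, against 7.13% of all probes. The median difference over the 9 genes was 0.01. Over all tested probes it was 0.000712, with 50.2% of those probes nominally higher in KO kidneys. With numbers this small the shares are a description, and no test was made over the genes as a group.

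**Figure D1:**
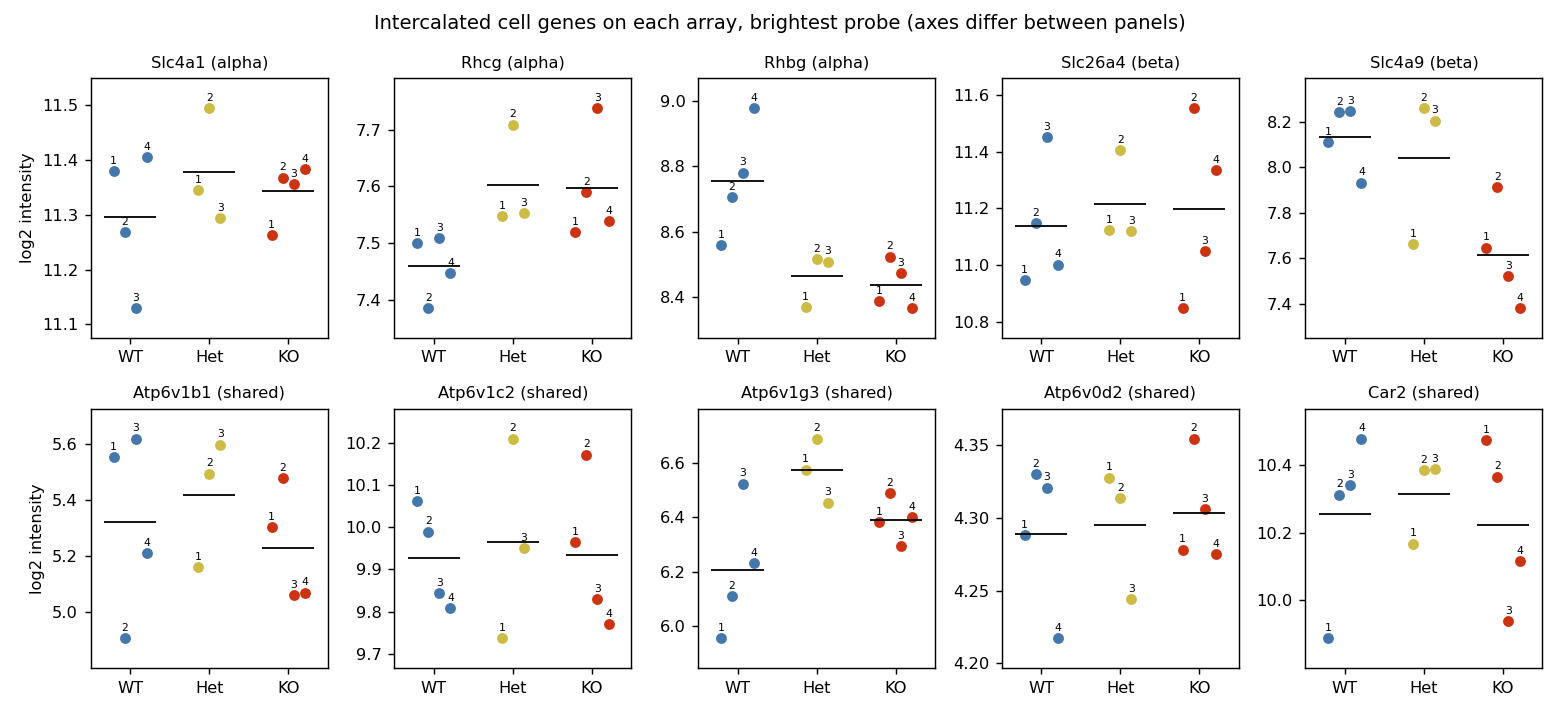
Log2 intensity (vertical axes, which differ between panels) of the brightest probe of each of the 10 genes in WT, Het and KO kidneys; each point is 1 array with its number, and each bar is a group mean. The KO points of Slc4a9 and Rhbg lie below all WT points and those of Rhcg above them, while the groups overlap in the other panels.

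**Figure D2:**
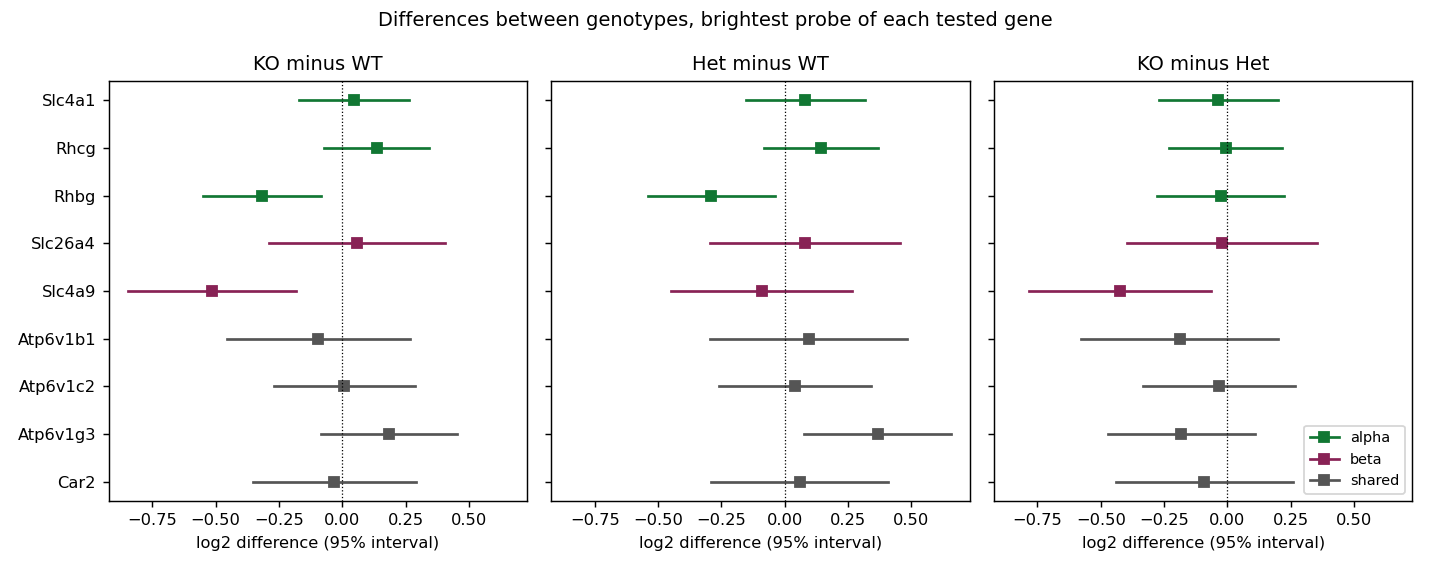
Log2 difference between genotypes (horizontal axes) for the brightest probe of each of the 9 tested genes, coloured by the kind of cell; squares are fitted differences and lines are limma's 95% intervals, without adjustment for the number of probes. For KO minus WT the intervals of Slc4a9 (-0.85 to -0.18) and Rhbg (-0.55 to -0.08) leave out 0, and all others cross it.

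Of the alpha cell genes, Slc4a1 differed least from WT in both mutant genotypes. It measured 11.38, 11.27, 11.13 and 11.41 on the WT arrays, 11.34, 11.49 and 11.29 on the Het arrays, and 11.26, 11.37, 11.36 and 11.38 on the KO arrays. The KO arrays lay within the WT range. KO minus WT was 0.05 ± 0.10 (SE, 95% interval -0.17 to 0.26, adjusted p = 0.879 in limma), so the interval leaves out a difference as large as that of Slc4a9. Since AE1 is also a red cell protein, hemoglobin is given beside it. The tested red cell markers (3 of 12 in the list: Hba-a1, Hbb-b2 and Alas2, with the others without a probe under that symbol or not detected) had a median difference of -0.70, with 0 of 3 past the test. Their mean deviation from the WT mean ran from -0.84 to 0.66 on the WT arrays, from -0.85 to 0.16 on the Het arrays and from -1.44 to 0.36 on the KO arrays. The part of red cell RNA in the Slc4a1 values was not tested.

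Rhbg, the basolateral ammonia channel, was lower without Cldn16, though not past the test. It measured 8.56, 8.71, 8.78 and 8.98 on the WT arrays, 8.37, 8.52 and 8.51 on the Het arrays, and 8.39, 8.52, 8.47 and 8.37 on the KO arrays. All 7 Het and KO arrays lay below all 4 WT arrays, and the Het and KO arrays overlapped. The mean of the WT arrays was 8.76 ± 0.17 (SD, n = 4), that of the Het arrays 8.47 ± 0.08 (SD, n = 3) and that of the KO arrays 8.44 ± 0.07 (SD, n = 4). KO minus WT was -0.32 ± 0.11 (SE, 0.80-fold; unadjusted p = 0.0114, adjusted p = 0.265 in limma; by exact permutation p = 0.0286, the lowest that can occur). Within slide 1 the difference was -0.18 and within slide 2 it was -0.46. Scaled by a median shift per array in place of quantile normalization, it was -0.14 (adjusted p = 0.687 in limma), and the median of all tested probes then stood at 0.11.

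Rhcg, the ammonia channel found mainly on the apical side, differed the opposite way and by less. It measured 7.50, 7.39, 7.51 and 7.45 on the WT arrays, 7.55, 7.71 and 7.55 on the Het arrays, and 7.52, 7.59, 7.74 and 7.54 on the KO arrays. All 7 Het and KO arrays lay above all 4 WT arrays, the nearest at 7.52 against 7.51. The KO minus WT difference was 0.14 ± 0.10 (SE, 95% interval -0.07 to 0.34; adjusted p = 0.577 in limma; by exact permutation p = 0.0286, the lowest that can occur), with 0.11 within slide 1 and 0.16 within slide 2. Without KO 3, the highest array, it was 0.09 (adjusted p = 0.746 in limma), and with the median shift, against an all-probe median of 0.11, it was 0.31 (adjusted p = 0.357). The WT arrays of Rhcg were closely spaced (SD 0.06, n = 4). The limma fit pools the spread within all genotypes (SD 0.08 for Rhcg) and sets it against the spread of other probes. Rhcg and Rhbg, a pair of related channels, stood on opposite sides of their WT values in both mutant genotypes. Both comparisons rest on the same 4 WT arrays, so they are not independent. The limma 95% interval of Rhcg crossed 0 in each (-0.07 to 0.34 for KO, -0.08 to 0.37 for Het).

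The beta cell genes gave unlike KO minus WT differences, and neither passed the test. Slc4a9, the basolateral exchanger AE4, had the largest KO minus WT difference of any main probe among the 9 genes. It measured 8.11, 8.24, 8.25 and 7.93 on the WT arrays, 7.66, 8.26 and 8.20 on the Het arrays, and 7.65, 7.91, 7.52 and 7.38 on the KO arrays. All 4 KO arrays lay below all 4 WT arrays, KO 2 by the least, and Het 1 lay within the KO range while Het 3 lay among the WT arrays and Het 2 was the highest of all 11. The mean of the WT arrays was 8.13 ± 0.15 (SD, n = 4), that of the Het arrays 8.04 ± 0.33 (SD, n = 3) and that of the KO arrays 7.62 ± 0.23 (SD, n = 4). KO kidneys differed from WT by -0.52 ± 0.15 (SE, 0.70-fold; unadjusted p = 0.00506, adjusted p = 0.218 in limma; by exact permutation p = 0.0286, the lowest that can occur), with -0.40 within slide 1 and -0.64 within slide 2. With the median shift it was -0.34 (adjusted p = 0.419 in limma), against an all-probe median of 0.11.

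Slc26a4, the apical exchanger pendrin of the same cells, measured 10.95, 11.15, 11.45 and 11.002 on the WT arrays, 11.12, 11.41 and 11.12 on the Het arrays, and 10.85, 11.55, 11.05 and 11.33 on the KO arrays. KO arrays were both the lowest and the highest of all 11. The difference between KO and WT was 0.06 ± 0.16 (SE, 95% interval -0.29 to 0.41, adjusted p = 0.906 in limma), with 0.15 within slide 1 and -0.04 within slide 2. Array by array, the deviation of Slc4a9 from its WT mean minus that of Slc26a4 was 0.17, 0.10, -0.20 and -0.07 on the WT arrays, -0.46, -0.14 and 0.09 on the Het arrays, and -0.20, -0.64, -0.52 and -0.95 on the KO arrays. Slc4a9 was the lower of the pair on all 4 KO arrays, although KO 1 was level with WT 3. The mean of this difference was -0.58 ± 0.31 (SD, n = 4) in KO kidneys, and since the pair was set against each other after their values were known it was not tested.

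**Figure D3:**
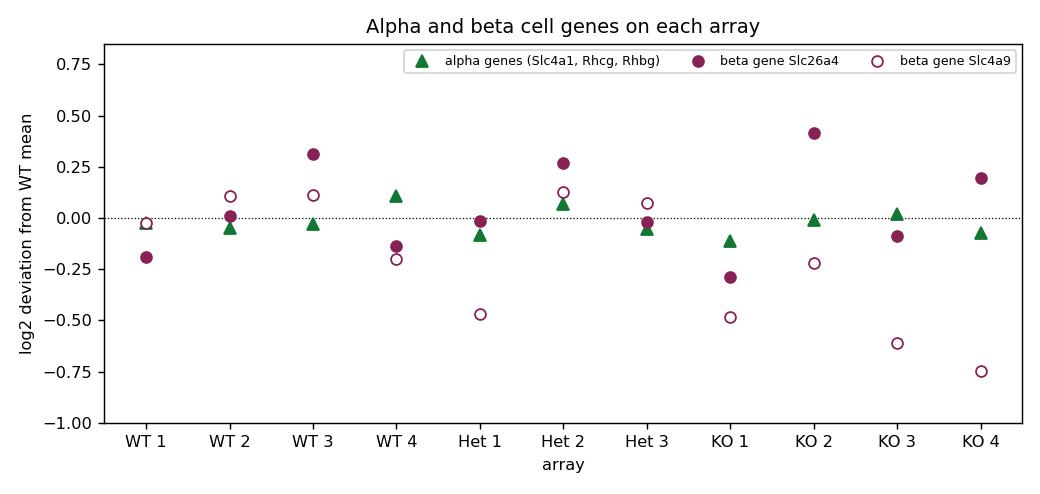
Deviation of each array (horizontal axis) from the WT mean in log2 units (vertical axis), for the mean of the alpha cell genes (triangles) and for each beta cell gene (filled circles Slc26a4, open circles Slc4a9). The triangles stay between -0.11 and 0.11 on all 11 arrays, and the open circles lie below the filled ones on the 4 KO arrays.

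Alpha against beta cell genes gave no single balance. The mean deviation of the alpha genes from WT minus that of the beta genes was 0.08, -0.11, -0.25 and 0.27 on the WT arrays, 0.16, -0.13 and -0.08 on the Het arrays, and 0.27, -0.11, 0.37 and 0.20 on the KO arrays. The groups overlapped, with a KO mean of 0.18 ± 0.21 (SD, n = 4) and an SD of 0.23 among the WT arrays. The KO mean was 0.10 on slide 1 and 0.26 on slide 2. It was 0.10 without WT 3, 0.12 without KO 3, 0.27 without WT 4 and 0.28 without KO 2. It also moved with the choice of beta gene: against Slc4a9 alone the KO mean was 0.47, and against Slc26a4 alone it was -0.10. Within the alpha genes Rhcg (KO minus WT 0.14) and Slc4a1 (0.05) offset part of the difference of Rhbg (-0.32). The mean over these alpha genes was -0.04 ± 0.06 (SD, n = 4) in KO kidneys.

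The shared genes come next, beginning with the proton pump, a rotary enzyme whose V1 part splits ATP and whose V0 part carries protons through the membrane. Atp6v1b1 encodes the B1 subunit of V1, the form found in intercalated cells and mutated in a human distal renal tubular acidosis with deafness. Its main probe was dim, above background on 8 of 11 arrays, and measured 5.55, 4.91, 5.62 and 5.21 on the WT arrays, 5.16, 5.49 and 5.60 on the Het arrays, and 5.30, 5.48, 5.06 and 5.07 on the KO arrays. The groups overlapped, with KO minus WT at -0.09 ± 0.17 (SE, adjusted p = 0.848 in limma). A further probe (ILMN_2879910), above background on 5 of 11 arrays, differed by 0.30 ± 0.20 (adjusted p = 0.569 in limma), so the direction differed between the probes and neither passed.

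Atp6v1g3, the G3 subunit of the stalk of V1, measured 5.96, 6.11, 6.52 and 6.23 on the WT arrays, 6.57, 6.69 and 6.45 on the Het arrays, and 6.38, 6.49, 6.29 and 6.40 on the KO arrays. The Het arrays were the upper group, and the KO arrays lay within the WT range. KO kidneys differed from WT by 0.19 ± 0.12 (SE, adjusted p = 0.552 in limma), with 0.40 within slide 1 and -0.03 within slide 2. It was 0.10 without WT 1 and 0.29 without WT 3 (adjusted p of 0.780 and 0.323 in limma). Atp6v0d2, the d2 subunit of V0, read 4.22 to 4.35 on the 11 arrays with detection p-values of 0.678 or higher, so it was not well above background on any array and no difference is given.

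Atp6v1c2, the C2 subunit of V1, has a pair of probes that gave different pictures, both assigned to the same transcript by the annotation. The brighter one (ILMN_2898578) measured 10.06, 9.99, 9.84 and 9.81 on the WT arrays, 9.74, 10.21 and 9.95 on the Het arrays, and 9.96, 10.17, 9.83 and 9.77 on the KO arrays, a KO minus WT difference of 0.01 ± 0.13 (SE, adjusted p = 0.987 in limma). The other (ILMN_1244260) measured 7.99, 8.12, 8.86 and 8.81 on the WT arrays, 8.45, 6.84 and 7.96 on the Het arrays, and 6.41, 6.77, 6.57 and 8.59 on the KO arrays. Its arrays fell into a lower set of KO 1, KO 2, KO 3 and Het 2, at 6.84 or less, and an upper set of the other 7, at 7.96 or more. Its KO minus WT difference was -1.36 ± 0.45 (SE; unadjusted p = 0.00929, adjusted p = 0.256 in limma; exact permutation p = 0.0857), with -1.46 within slide 1 and -1.25 within slide 2. The brighter probe showed no such sets, with Het 2 and KO 2 its 2 highest arrays.

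**Figure D4:**
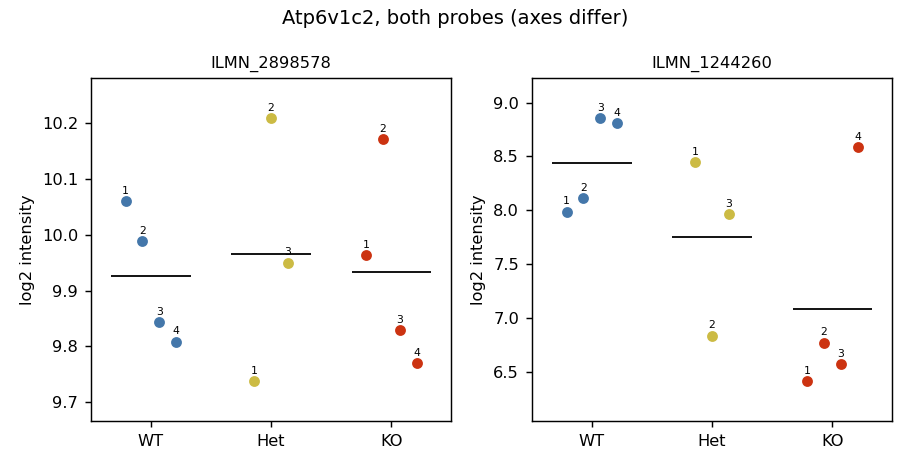
Log2 intensity (vertical axes, which differ) of both probes of Atp6v1c2 in WT, Het and KO kidneys; each point is 1 array with its number, and each bar is a group mean. On the left the groups overlap throughout, and on the right KO 1, KO 2, KO 3 and Het 2 lie at 6.84 or less with the other 7 arrays at 7.96 or more.

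Car2, the soluble carbonic anhydrase of both kinds of intercalated cell and of the proximal tubule, measured 9.89, 10.31, 10.34 and 10.48 on the WT arrays, 10.17, 10.39 and 10.39 on the Het arrays, and 10.47, 10.37, 9.94 and 10.12 on the KO arrays. KO arrays stood both near the top and near the bottom, by slide. KO minus WT was -0.03 ± 0.15 (SE, adjusted p = 0.949 in limma), made of 0.32 within slide 1 and -0.38 within slide 2, so no single direction held on both slides. Its further probe differed by 0.05 ± 0.31 (adjusted p = 0.962 in limma).

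The comparison of Het with WT kidneys asks what the loss of 1 allele does. By their main probes 7 of 9 genes were nominally higher and 2 nominally lower in Het kidneys, and 0 of 9 passed an adjusted p of 0.05 in limma, against 0% of all tested probes (0 of 22856). At an unadjusted p under 0.05 there were 2 of 9 (Atp6v1g3 and Rhbg), against 6.75% of all probes, and 2 of 9 did not overlap (Rhbg and Rhcg), against 6.72%. The median difference was 0.08. Over all tested probes it was -0.00302, with 49.2% of those probes nominally higher in Het kidneys. Rhbg differed by -0.29 ± 0.12 (SE, 95% interval -0.54 to -0.04; adjusted p = 0.715 in limma; exact permutation p = 0.0571), Rhcg by 0.14 ± 0.10 (adjusted p = 0.846; exact permutation p = 0.0286) and Atp6v1g3 by 0.37 ± 0.13 (unadjusted p = 0.0169, adjusted p = 0.697; exact permutation p = 0.0857). For Atp6v1g3 the difference was 0.60 within slide 1 and 0.08 within slide 2, where a single Het array lay. Slc4a9 differed by -0.09 ± 0.17 (adjusted p = 0.955 in limma). All of these Het differences come from the same WT arrays as the KO differences.

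Between KO and Het kidneys all 9 genes were nominally lower in KO, with differences from -0.42 to -0.01 log2 units. Of all tested probes 50.4% were nominally higher in KO. None of the 9 genes passed an adjusted p of 0.05 in limma, against 0% of all tested probes. At an unadjusted p under 0.05 there was 1 of 9 (Slc4a9), against 5.44% of all probes, and 0 of 9 did not overlap, against 6.19%. Slc4a9 differed by -0.42 ± 0.17 (SE, 95% interval -0.78 to -0.07; adjusted p = 0.889 in limma; exact permutation p = 0.114), with -0.18 within slide 1 and -0.75 within slide 2. The next largest was that of Atp6v1b1, at -0.19 ± 0.18 (adjusted p = 0.948 in limma), and the interval of Rhbg ran from -0.28 to 0.22. The common direction did not hold up: 4 of 9 genes were higher in KO without Het 2 (the highest of the 11 arrays in 4 of 9 genes), 3 without KO 3, 2 without KO 1 and 2 without KO 4. On slide 1 alone 4 of 9 were higher in KO and on slide 2 alone 3, and with the median shift 2.

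Across the 11 arrays the main probes were also compared with each other. Of the 36 pairs of main probes, 26 had a positive Pearson r, from -0.48 to 0.59 in all, and 0 had an adjusted permutation p under 0.05 (lowest 0.726, 100000 permutations). With each genotype's mean removed, 29 of the 36 were positive, from -0.40 to 0.83. The lowest of the 36, Rhcg with Rhbg (r = -0.48), then stood at 0.19, and Slc4a9 with Atp6v1c2 (r = 0.55 before) was the highest at 0.83. No r with genotype means removed was tested. Without that removal the highest was Slc26a4 with Atp6v1g3 (r = 0.59, permutation p = 0.0569; Spearman rho = 0.64, permutation p = 0.0399, adjusted p = 0.566; r = 0.56 without the 2 arrays farthest from the Slc26a4 median). The beta cell exchangers Slc26a4 and Slc4a9 had an r of 0.23 (permutation p = 0.499, Spearman rho = 0.33 with permutation p = 0.328; r = 0.11 without the 2 farthest arrays), and 0.44 with genotype means removed.

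Among 12178 other named genes, those most like Atp6v1b1 over the 11 arrays by Pearson r were Itfg1 (0.90), Bcl2l2 (0.87), Ksr1 (0.87), Dnajc1 (0.86) and Zfp641 (0.85). For Slc4a1 they were Lrrc24 (0.87), Rgs17 (0.87), Zfp709 (0.86), Olfr694 (0.83) and Pip5k1b (0.82), and for Slc26a4 they were Srsf6 (0.90), Afm (0.90), Lbh (0.89), Cdkn2aipnl (0.88) and Slc25a37 (0.87). None of the other 8 tested genes was among them: the nearest to Atp6v1b1 was Slc4a9 at rank 367, to Slc4a1 it was Rhcg at rank 1030, and to Slc26a4 it was Atp6v1g3 at rank 566. With 11 arrays and so many genes, values of this size are a ranking and not evidence of a link.

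Other genes of the same pathways were read from lists, each gene by its brightest tested probe, and none of these genes passed the test between KO and WT kidneys. Of the other proton pump subunits 17 of 21 were tested, with 12 nominally higher and 5 lower and a median of 0.10. The 3 largest differences were those of Atp6v1b2, the B2 subunit found in most cells (0.47 ± 0.14 SE, adjusted p = 0.227 in limma), Atp6v0a1, an a subunit of V0 (0.43 ± 0.17, adjusted p = 0.313), and Atp6v1c1, the widespread C1 subunit (0.35 ± 0.10, adjusted p = 0.215). The mean deviation of all 17 ran from -0.03 to 0.05 on the WT arrays, from -0.03 to 0.06 on the Het arrays and from 0.05 to 0.12 on the KO arrays. The matching differences were -0.09 and 0.01 for the main probes of Atp6v1b1 and Atp6v1c2. Their further probes gave 0.30 and -1.36, and both Atp6v1b1 probes were dim. Among the G subunits, Atp6v1g3 differed by 0.19, Atp6v1g1 by 0.10 and Atp6v1g2 by -0.33. No contrast between such subunits was tested.

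Of other acid-base transporters and carbonic anhydrases 13 of 18 were tested, with 7 higher and 6 lower and a median of 0.00152. The largest differences among those above background on every array were Atp4a, the gastric proton-potassium pump (-0.81 ± 0.59 SE, adjusted p = 0.588 in limma), Slc9a2, a sodium-proton exchanger (-0.35 ± 0.13, adjusted p = 0.288), and Car14, a membrane carbonic anhydrase (0.34 ± 0.12, adjusted p = 0.286). Of the ammonia production genes 6 of 8 were tested, with 2 higher and 4 lower and a median of -0.10. Slc38a3, the glutamine transporter that feeds ammonia production, differed by -0.49 ± 0.14 (adjusted p = 0.212 in limma), Slc7a7, an amino acid transporter subunit, by 0.35 ± 0.24 (adjusted p = 0.565), and Glud1, glutamate dehydrogenase, by 0.21 ± 0.13 (adjusted p = 0.511).

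Genes of intercalated cell identity, sensing and channels (13 of 20 tested) were 9 higher and 4 lower, with a median of 0.05. Foxi1 itself differed by 0.05 ± 0.19 (SE, adjusted p = 0.941 in limma). P2ry14, a receptor for UDP-glucose, differed by 0.45 ± 0.21 (adjusted p = 0.388), Aqp6, an intracellular aquaporin of intercalated cells, by 0.38 ± 0.18 (adjusted p = 0.392), and Jag1, a Notch ligand, by -0.21 ± 0.16 (adjusted p = 0.607). The lowest value of the list was that of Adgrf5, an adhesion receptor also made in endothelium, at -1.16 ± 0.46 (adjusted p = 0.323 in limma), a gene outside the naming rule and picked after its value was seen.

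Markers of other cells of the kidney are given for the same KO and WT arrays. Of 9 principal cell markers 8 were nominally higher, with 0 past the test and a median of 0.31, and the largest differences among them were those of Elf5, a transcription factor (1.21 ± 0.35 SE, adjusted p = 0.212 in limma), Aqp2, the vasopressin-regulated water channel (1.02 ± 0.28, adjusted p = 0.206), and Aqp4, a basolateral water channel (0.81 ± 0.32, adjusted p = 0.310). Their mean deviation ran from -0.19 to 0.35 on the WT arrays, from -0.07 to 0.38 on the Het arrays and from 0.20 to 0.77 on the KO arrays. All 4 tested markers of the distal convoluted and connecting tubule, of 5 in the list, were nominally higher, with a median of 0.37. Their mean deviation ran from -0.09 to 0.04 on the WT arrays, from -0.18 to 0.18 on the Het arrays and from 0.33 to 0.54 on the KO arrays. The KO and WT arrays thus did not overlap, as was so for 7.13% of all single tested probes, and this mean was not tested. The nearest to the threshold was Trpm6, a magnesium channel (0.73 ± 0.13, adjusted p = 0.0826 in limma). Proximal tubule markers had a median of 0.10 (5 tested) and thick ascending limb markers, Umod and Slc12a1, a median of 0.00164. Adipose markers (7 of 10 tested) had a median of 0.51 and were high on KO 1, Het 3 and KO 4, at 1.26 to 1.54 above the WT mean. With these 3 arrays left out, which leaves 2 KO arrays, KO minus WT was -0.41 for Slc4a9, -0.26 for Rhbg and 0.20 for Rhcg (adjusted p of 0.406, 0.497 and 0.542 in limma). The part of any of these cells in the values of the acid-base genes was not tested.

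**Figure D5:**
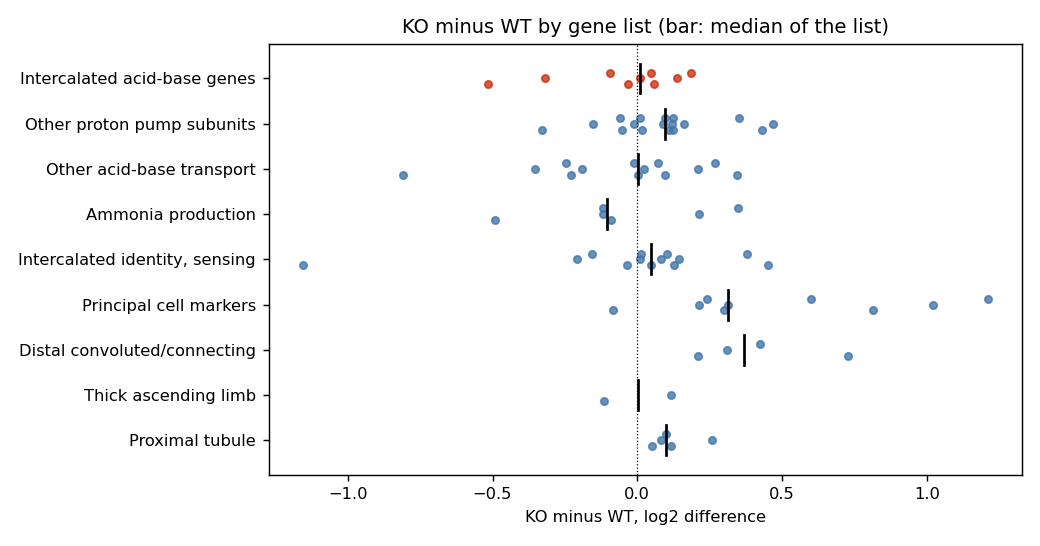
KO minus WT log2 difference (horizontal axis) of each tested gene, 1 point per gene by its brightest probe, in rows by gene list; the vertical bar in each row is the median of that list. The acid-base genes centre on 0.01, the principal cell markers on 0.31 and the distal convoluted and connecting tubule markers on 0.37.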

How the data were processed

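Kidney RNA of 11 mice was amplified to biotinylated cRNA and hybridised to Illumina mouse bead arrays, per the labels' protocols. Per the file headers, each array's deposited columns hold an intensity on the linear scale with its detection p-value, over 45281 probes. BeadStudio is named by the submitters' processing notes; no source used here records how it treated background or a genome build. Array medians of these intensities ran from 70.3 to 76.6, so they had been neither quantile normalized nor scaled to a common median. Whether another scaling between arrays was used cannot be told from the medians. A second deposited table of the authors' processed intensities had medians of 73.6 to 73.7 and came within a median of 0.00392 of a quantile normalization of the first; its scale was read from the values.

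The intensities were corrected with limma's normexp (limma 3.58.1, R 4.3.3; negative controls inferred from the detection p-values, offset 16), quantile normalized between arrays and log2-transformed. The offset makes differences of dim probes look smaller. The test covered the 22856 probes that 3 or more arrays detected at p under 0.05, in a single limma fit (lmFit, then eBayes with 5.19 prior degrees of freedom) of genotype means, two-sided, with Benjamini-Hochberg adjustment over all of them. Probes were named through the platform annotation: 34885 had 1 symbol, 18 several and 10378 none. A gene's main probe is its brightest on average. Companion lists held 110 entries, 12 of them without a probe under that symbol. Of each list of pathway genes (pump subunits, acid-base transport, ammonia production, cell identity) the text names every gene past the threshold and the 3 largest KO minus WT differences among genes above background on all arrays. Markers of other cells were named after their values were seen. Only the limma fit of KO against WT was tried on simulated data, with planted differences larger than those of the main probes of the member genes. Background correction, normalization, the probe filter and the permutation tests were not simulated. Groups come from the genotype in the labels, and mouse numbers pair nothing. The number of arrays limits precision. Alternatives covered background correction, normalization, probe filter, slide, postnatal day, array weights, probe choice, groups fitted and single arrays. The 10 genes, the lists and the alpha and beta assignment were chosen with earlier results of these data known.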

Additional observations from a re-analysis of the deposited data

Results flagged for a closer look

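In 1 of 26 groups of 4 arrays checked (13 probes in WT and KO), 1 array stood apart from the others by Dixon's test, for which chance alone gives about 1 in 20. It was KO 4 on the dimmer Atp6v1c2 probe (ILMN_1244260), at a log2 intensity of 8.59 against 6.41, 6.77 and 6.57 on KO 1, KO 2 and KO 3. On the brighter probe of the gene KO 4 measured 9.77, within the range of the other arrays. No explanation was tested.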

How the results depend on the processing

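No member gene passed an adjusted p of 0.05 in limma under any alternative run, in any comparison; Atp6v1b1 gave no value where a detection p under 0.01 was required on every array. Between KO and WT kidneys Slc4a9 (-0.62 to -0.34, lowest adjusted p 0.155), Rhbg (-0.45 to -0.14, lowest 0.202) and Rhcg (0.09 to 0.31, lowest 0.357) kept their direction in all 25 alternatives. Several other differences changed sign, and the cause was not tested. Not all of them were near 0 in the main run: Atp6v1g3 stood at 0.19 (KO, WT) and Atp6v1b1 at -0.19 (KO, Het). In the same order of comparison, first minus second genotype, the values were as follows. Median shift per array gave Car2 0.12 (KO, WT), Slc4a9 0.0485 (Het, WT), and Rhcg 0.0209 and Rhbg 0.00244 (KO, Het), with 2 genes higher in KO than Het. Slide 1 alone gave Slc4a1 -0.00901, Atp6v1b1 0.17 and Car2 0.32 (KO, WT), Atp6v1c2 -0.0527 (Het, WT), and Rhbg 0.0122, Atp6v1b1 0.0673, Atp6v1c2 0.0974 and Car2 0.14 (KO, Het), with 4 genes higher in KO than Het. Slide 2 alone gave Slc26a4 -0.0352, Atp6v1c2 -0.0255 and Atp6v1g3 -0.0288 (KO, WT), Slc26a4 -0.104, Slc4a9 0.111 and Car2 -0.0221 (Het, WT), and Slc4a1 0.0743, Rhcg 0.0848 and Slc26a4 0.0691 (KO, Het), with 2 genes higher in KO than WT and 3 in KO than Het. Postnatal day as a term gave Slc26a4 -0.00461 and array weights gave Atp6v1c2 -0.0497 (KO, WT). The further probes gave 0.30 for Atp6v1b1, -1.36 for Atp6v1c2 and 0.0511 for Car2 (KO, WT), and -0.69 for Atp6v1c2 (Het, WT; added after the data were seen). The alpha minus beta mean of 0.18 became -0.10 with Slc26a4 and 0.47 with Slc4a9 as the only beta gene. Without the 3 arrays highest in adipose markers, an alternative chosen after seeing the data, KO minus Het was 0.0357 for Rhcg, 0.0566 for Rhbg, 0.0378 for Slc26a4 and 0.0281 for Atp6v1c2, with 4 genes higher.

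Leaving out each array in turn, KO minus WT ranged from -0.00867 to 0.0838 for Slc4a1, -0.0598 to 0.175 for Slc26a4, -0.23 to 0.00421 for Atp6v1b1, -0.0712 to 0.0628 for Atp6v1c2 and -0.154 to 0.0629 for Car2, and, without a change of sign, from 0.103 to 0.294 for Atp6v1g3. Het minus WT ranged from -0.0137 to 0.184 for Slc26a4, -0.20 to 0.0972 for Slc4a9, -0.0443 to 0.222 for Atp6v1b1, -0.0819 to 0.154 for Atp6v1c2 and -0.0637 to 0.132 for Car2. KO minus Het ranged from -0.0768 to 0.0227 for Slc4a1, -0.0539 to 0.0464 for Rhcg, -0.14 to 0.0956 for Slc26a4, -0.146 to 0.0904 for Atp6v1c2 and -0.17 to 0.00424 for Car2. Genes higher in KO than WT numbered 3 (without KO 2) to 6, and in KO than Het 0 to 4 (without Het 2).

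Over all probes the 9 calls between KO and WT became 4 with slide as a block, 0 on slide 2 alone, 0 with postnatal day as a term, 0 with only the 2 genotypes compared, 14 with array weights, 4 without the 3 arrays highest in adipose markers, and 0 to 15 with single arrays left out (15 without WT 3). Between Het and WT the 0 calls became 1 on slide 1 and 0 to 1 with single arrays left out. Between KO and Het they became 2 without background correction, 2 with the authors' processed values, 5 on slide 1 and 0 to 1 with single arrays left out. Slide 2 holds a single Het array, so calls there in either comparison with Het are not given. No paired analysis was possible because the mouse numbers in the labels pair no samples across genotypes. Signal over background limits Atp6v1b1 and Atp6v0d2 most.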
